A study of Homo sapiens with 8 samples.

Results

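The genes examined were 6 transcription factors of the epithelial to mesenchymal transition (EMT), ZEB2, SNAI1, SNAI2, TWIST1, TWIST2 and PRRX1. They were chosen by name, as drivers of the transition other than ZEB1, and are 6 of the 19970 protein-coding genes annotated on the autosomes and the X chromosome. The data came from SUM159, an established triple-negative breast cancer line of mesenchymal type, in which the ZEB1 promoter was targeted for silencing. All cells carried pLV-KRAB, the lentiviral vector for dCas9-KRAB, a nuclease-dead Cas9 fused to the KRAB repressor domain. The All gRNA cells also carried 4 guide RNAs against the ZEB1 promoter, and the No gRNA cells carried no targeting guide, as an empty vector control. Native chromatin immunoprecipitation and sequencing gave 2 libraries per group, labelled biological replicates, for trimethylated lysine 9 of histone H3 (H3K9me3) and 2 per group for trimethylated lysine 4 (H3K4me3), 8 libraries in all. The comparison asked whether either mark moved at the other EMT factors when ZEB1 was targeted. The lists hold peaks and no transcript levels, so nothing here measures how far these genes were transcribed.

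In EMT, epithelial cells lose their junctions and gain motility under a small set of DNA-binding proteins that repress epithelial genes such as CDH1 and switch on mesenchymal ones. ZEB and SNAIL proteins are zinc-finger factors that bind E-boxes, TWIST proteins are basic helix-loop-helix factors that bind as dimers with E proteins, and PRRX1 is a paired-related homeobox factor. H3K4me3 marks promoters that are active or poised, and H3K9me3 marks heterochromatin. KRAB recruits the H3K9 methyltransferase SETDB1 through KAP1.

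At the targeted gene, H3K9me3 peaks covered 79.4% and 82.0% of the bases within 10 kb of the ZEB1 transcription start site (TSS) in All gRNA 1 and 2, against 4.57% and 1.33% in No gRNA 1 and 2. The size of this contrast depended on the peaks counted. With a q-value of 0.05 or less, ZEB1 shares were 22.8% (All gRNA 1), 67.3% (All gRNA 2), 0% (No gRNA 1) and 0% (No gRNA 2). The difference in group means was 77.8 points with every peak, 45.1 points at that threshold and 4.83 points at 0.01 or less. The H3K4me3 libraries were not divided by group as the H3K9me3 libraries were. Peaks covered 0% of the ZEB1 TSS ± 1 kb in the libraries labelled All gRNA 1 and No gRNA 1, and 100% in those labelled All gRNA 2 and No gRNA 2. The names of 2 deposited H3K4me3 peak lists also give the other condition, those of the libraries labelled All gRNA 2 and No gRNA 1, and the name for the library labelled All gRNA 1 gives another replicate number. Exchanging the labels of these 2 libraries would separate the groups fully at ZEB1. Which labels are right was not tested. For this mark each library is named by its label, and results are also given for the labelled All gRNA 1 and No gRNA 2 libraries alone. The peak lists held between 321975 and 506683 peaks, of which between 3067 and 36131 on these chromosomes had a q-value of 0.05 or less. The number of reads behind them is unknown. Because each library pools many cells, a mark carried by fewer cells cannot be told apart from one carried more weakly by all cells. Of the mesenchymal markers checked, 6 of 6 had an H3K4me3 peak within 1 kb of the TSS in all 4 libraries, and 1 of the 6, MMP2, had none at q of 0.05 or less in any library. For the epithelial and luminal markers these counts were 5 of 8 and 8 of 8. In any 1 library between 83.55% and 88.9% of all promoters had an H3K4me3 peak there. The share with a peak in all 4 libraries at once, which cannot be larger, was not computed. Of all promoters 45.2% had none at q of 0.05 or less in any library.

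H3K9me3 at the 6 factors ran from none to a share of 47.2%, and no factor was separated between the groups by the rule used here. SNAI1 had none, ZEB2 and TWIST2 had little, SNAI2 and TWIST1 had an intermediate share, and PRRX1 had the most. A promoter counted as called where the 2 groups were separated by 25 percentage points or more, from the lowest library of the higher group to the highest of the lower. By this rule 0 of the 6 factors were called higher in All gRNA, where 0.18% of all promoters were, and 0 were called lower, where 0.0351% were. The median difference, All gRNA minus No gRNA, was −0.194 points over the 6 factors and −0.924 points over all promoters. With 2 libraries a group the smallest p that an exact permutation test, two-sided, can give is 0.33, so no single value could pass 0.05.

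**Figure D1:**
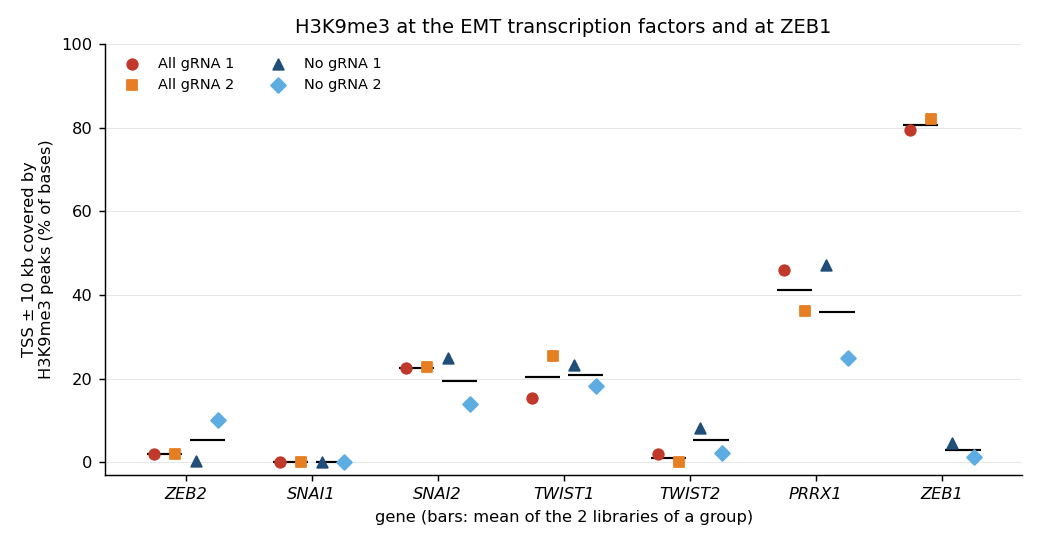
Percent of the bases within 10 kb of each TSS covered by H3K9me3 peaks (vertical axis), for the 6 EMT factors and ZEB1, one point per library and a bar at the mean of each group of 2. The group means differ by 77.8 points at ZEB1, while at PRRX1, the factor with the most H3K9me3, the points run from 24.9% to 47.2% with both groups mixed.

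ZEB2, the paralogue of ZEB1, lies on the minus strand of chromosome 2 (hg38, 144364364 to 144521057). Within 10 kb of its TSS, H3K9me3 peaks covered 2.06% and 1.88% in All gRNA 1 and 2, against 0.415% and 10.0% in No gRNA 1 and 2. The No gRNA libraries held both the lowest and the highest value, so the groups overlapped. The difference was −3.24 points with a pooled SD of 4.80 (n = 2 and 2). Each peak was under 1 kb long, and no base of the window was covered in more than 2 libraries. Over the whole gene body the shares were 4.29% and 5.22% in All gRNA, compared with 10.4% and 6.33% in No gRNA, which did not overlap (exact permutation test, two-sided, p = 0.33). Gene bodies of 24.5% of all genes did not overlap in this direction and of 10.8% in the other. Among the 6 factors ZEB2 and TWIST2 were lower and TWIST1 was higher in All gRNA, with 21.6% and 23.03% at TWIST1, compared with 19.1% and 21.2% in No gRNA. The TWIST1 gene body here is the whole annotated span of 96.6 kb, so most of it lies far downstream of the TSS. ZEB1 itself had 33.0% and 35.1% of its gene body covered in All gRNA, compared with 17.5% and 15.5% in No gRNA.

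SNAI1, which encodes the repressor SNAIL, lies on the plus strand of chromosome 20 (49982980 to 49988886). No H3K9me3 peak fell within 10 kb of its TSS in any of the 4 libraries. The nearest peak began 46143, 24518, 21165 and 34397 bases downstream in All gRNA 1, All gRNA 2, No gRNA 1 and No gRNA 2. A share of 0 was also seen at between 20.0% and 38.2% of all promoters, depending on the library. SNAI1 thus stood at the floor of this measure in both groups.

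SNAI2, which encodes the related repressor SLUG, lies on the minus strand of chromosome 8 (48917598 to 48921740). Its shares were 22.4% and 22.7% in All gRNA, compared with 25.02% and 13.9% in No gRNA. The No gRNA libraries lay on either side of the All gRNA pair, and the difference was 3.11 points with a pooled SD of 5.55. At least 66.0% of all promoters had a smaller share in every library. The peaks were scattered on both sides of the gene, and in No gRNA 1 a peak lay over the TSS. Only 0.231 kb, between −9.17 and −8.94 kb from the TSS (minus marks upstream), was covered in all 4 libraries. No H3K9me3 peak at SNAI2 had a q-value of 0.05 or less.

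TWIST1, a basic helix-loop-helix factor, lies on the minus strand of chromosome 7 (19020991 to 19117636). H3K9me3 covered 15.4% and 25.3% in All gRNA, compared with 23.3% and 18.2% in No gRNA, and the ranges overlapped. The difference of −0.387 points was the smallest after SNAI1. A peak lay 8.70 kb and more downstream of the TSS in all 4 libraries, and the run that they shared was 2.46 kb long (chromosome 7, 19106479 to 19108934). In No gRNA 2 that peak passed q of 0.05 or less, with q = 0.0478. Closer to the TSS the libraries differed: within 1 kb the share was 0% and 100% in All gRNA 1 and 2 and 0% and 33.9% in No gRNA 1 and 2. The peak behind the value of 100% was 2.78 kb long, with q = 0.733.

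TWIST2, the paralogue of TWIST1, lies on the plus strand of chromosome 2 (238848032 to 238910534). Its shares were 2.03% and 0% in All gRNA, compared with 8.26% and 2.21% in No gRNA. The groups did not overlap, but the nearest values, 2.03% and 2.21%, were almost level (difference −4.22 points, pooled SD 3.19, exact permutation test, two-sided, p = 0.33). Over all promoters, 24.4% had non-overlapping groups in this direction and 11% in the other. The gene body shares were 1.38% and 4.66% in All gRNA, compared with 8.19% and 12.8% in No gRNA. Each TWIST2 peak in the window had q of at least 0.297.

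PRRX1 lies on the plus strand of chromosome 1 (170662728 to 170739421). Its H3K9me3 shares were 46.0% and 36.2% in All gRNA, compared with 47.2% and 24.9% in No gRNA. Both the highest and the lowest value came from No gRNA, and the difference of 5.04 points was smaller than the pooled SD of 12.2. Between 81.3% and 93.0% of all promoters had a smaller share in the same library. In every library a peak lay just upstream of the gene, and the 1.46 kb that all 4 covered ran from −2.36 to −0.904 kb (chromosome 1, 170660369 to 170661824). It was the strongest PRRX1 peak in All gRNA 1 (q = 0.0309, 2.05-fold enrichment), No gRNA 2 (q = 0.0285, 2.01-fold) and No gRNA 1 (q = 0.307, 1.75-fold). In All gRNA 2 it had q = 0.217, and a peak further into the gene was stronger (q = 0.180). Only the upstream peaks of All gRNA 1 and No gRNA 2 had q of 0.05 or less at this gene. At that threshold the PRRX1 share was 10.3% in All gRNA 1, 8.21% in No gRNA 2 and 0% in the other two libraries.

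The middle of this shared segment is shown because it is the one stretch close to a member's TSS that every H3K9me3 library covered. The 200 bases, chr1:170660997-170661196 of hg38, plus strand, lie in no protein-coding exon, hold 9 CG pairs (in capitals) and were covered by H3K4me3 peaks in none of the 4 libraries.
PRRX1 upstream segment: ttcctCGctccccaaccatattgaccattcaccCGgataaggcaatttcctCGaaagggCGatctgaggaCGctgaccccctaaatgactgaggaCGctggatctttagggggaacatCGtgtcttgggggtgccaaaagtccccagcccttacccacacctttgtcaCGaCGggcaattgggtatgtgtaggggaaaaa

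Within 50 kb the order of the factors changed. SNAI2 had the most H3K9me3, with 34.3% and 37.0% in All gRNA, compared with 32.1% and 30.9% in No gRNA. PRRX1 followed with 24.7%, 26.3%, 29.5% and 27.7% in All gRNA 1, All gRNA 2, No gRNA 1 and No gRNA 2, and SNAI1 remained lowest with 0.342%, 1.19%, 2.92% and 2.36%. All 4 libraries shared 9.46 kb at SNAI2, 6.99 kb at PRRX1, 3.11 kb at TWIST1, 2.70 kb at TWIST2, 0.912 kb at ZEB2 and none at SNAI1. At SNAI2 the shared runs numbered 11 and the longest, 2.37 kb, lay between −38.7 and −36.3 kb. At TWIST2 the 5 shared runs included one of 1.22 kb between −39.6 and −38.4 kb. The ±50 kb shares of TWIST2 were 11.9% and 8.07% in All gRNA, compared with 18.6% and 16.7% in No gRNA. The groups did not overlap at SNAI1, TWIST2 and PRRX1, lower in All gRNA, nor at SNAI2, higher in All gRNA. This was so for 39.4% and 15% of all promoters in the lower and the higher direction. At ZEB1 the ±50 kb shares were 55.1% and 58.0% in All gRNA, compared with 12.9% and 11.1% in No gRNA.

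**Figure D2:**
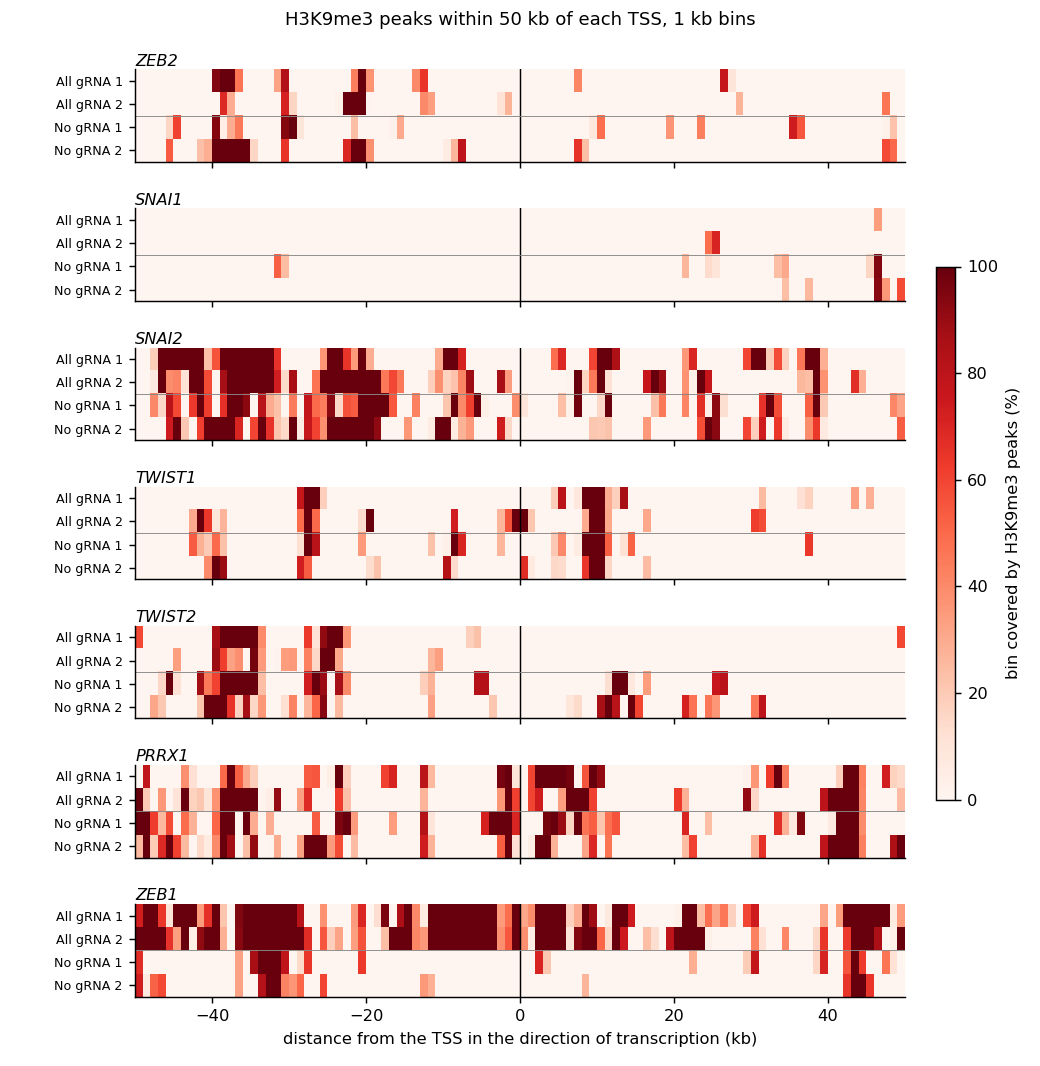
H3K9me3 peaks from 50 kb before to 50 kb after each TSS (horizontal axis, in the direction of transcription) in the 4 libraries (rows), with the colour giving the percent of each 1 kb bin that peaks cover. ZEB1 differs between the upper and lower pair of rows, with 55.1% and 58.0% against 12.9% and 11.1%, whereas SNAI2 and PRRX1 carry blocks in all 4 rows and SNAI1 is almost empty.

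An H3K4me3 peak lay within 1 kb of the TSS of all 6 factors in every library, and the window was fully covered at 3 of them. Neither was confined to these genes, since at least 676 other genes had full cover in all 4 libraries. In any 1 library, between 83.55% and 88.9% of all promoters had a peak there, and between 46.5% and 56.6% were fully covered. The shares of promoters in all 4 libraries at once, which cannot be larger, were not computed. ZEB2, SNAI1 and SNAI2 had 100% of the TSS ± 1 kb covered in all 4 libraries, while TWIST1, TWIST2 and PRRX1 varied. By the same rule of 25 points, 0 of the 6 factors were called higher in the libraries labelled All gRNA, where 1.78% of all promoters were, and 0 were called lower, where 2.21% were. The median difference was 0 points over the 6 factors and 0 over all promoters. Peaks with q of 0.05 or less lay at ZEB2 and SNAI2 in 4 libraries, at TWIST2 in 3, at SNAI1 and TWIST1 in 2 and at PRRX1 in 1. Between 9.26% and 52.6% of all promoters had such a peak, depending on the library.

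**Figure D3:**
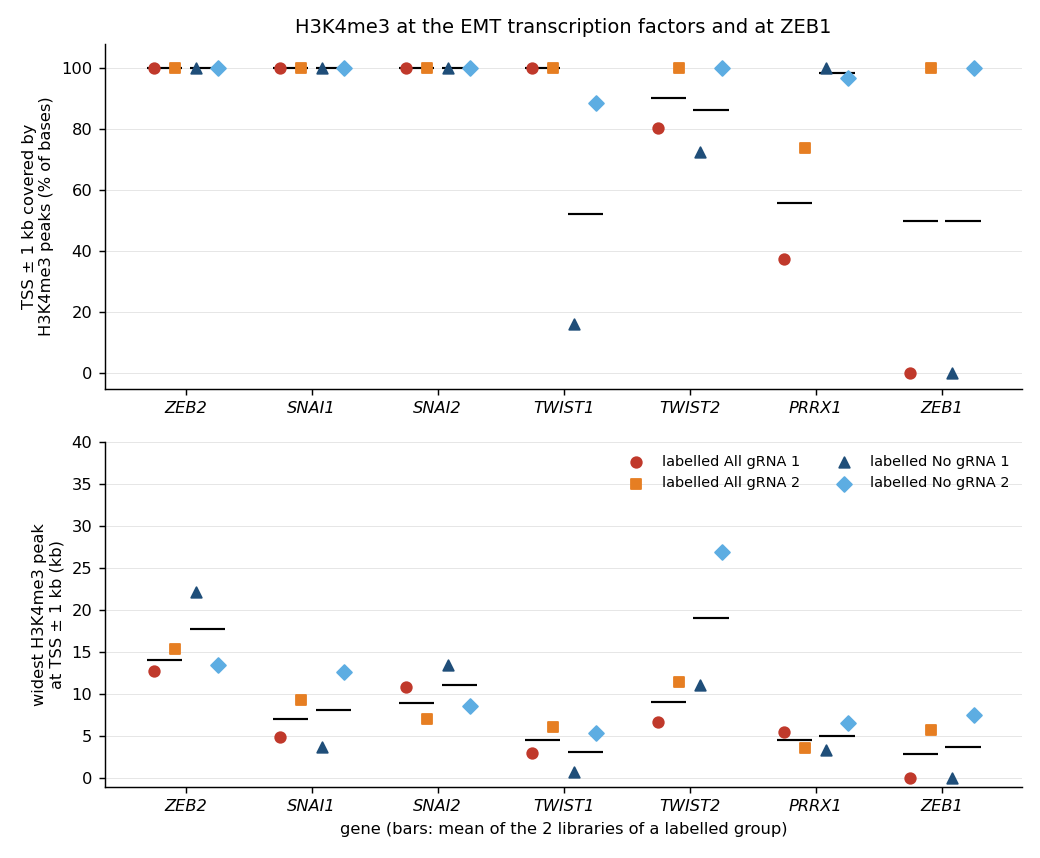
Upper panel, percent of the bases within 1 kb of each TSS covered by H3K4me3 peaks; lower panel, length in kb of the widest peak there, for the 6 EMT factors and ZEB1 with one point per library and a bar at the mean of each labelled group of 2. ZEB2, SNAI1 and SNAI2 sit at 100% in all 4 libraries, and widths of one gene spread widely within a group, as at TWIST2 with 11.1 and 27.0 kb in the labelled No gRNA libraries.

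ZEB2 carried the broadest H3K4me3 domain of the 6 by the length common to all libraries. Its widest peak measured 12.8 and 15.4 kb under the All gRNA label, against 22.2 and 13.4 kb under the No gRNA label, and the groups overlapped (difference −3.73 kb, pooled SD 4.56). A run of 12.2 kb, from −4.06 to 8.18 kb, was covered in all 4 (chromosome 2, 144512876 to 144525119). The −log10 q of the peak, 2.46 and 1.40 against 1.36 and 4.15, was exceeded at between 4.45% and 8.91% of all promoters. The bases just before the annotated 5′ end were covered by H3K4me3 in all 4 libraries and by H3K9me3 in none.
ZEB2, chr2:144521058-144521257 of hg38, minus strand, CG pairs in capitals: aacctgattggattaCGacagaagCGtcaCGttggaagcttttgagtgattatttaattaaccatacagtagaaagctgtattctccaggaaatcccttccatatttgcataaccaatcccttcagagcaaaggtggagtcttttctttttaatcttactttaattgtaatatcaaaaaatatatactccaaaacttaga

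SNAI1 had narrower and weaker H3K4me3 peaks. Widths were 4.94 and 9.27 kb in the labelled All gRNA libraries and 3.70 and 12.7 kb in the labelled No gRNA libraries, so the lowest and the highest shared a group. The −log10 q was 1.64 and 0.568 against 0.704 and 1.77, and only the first and the last correspond to q of 0.05 or less. The run shared around the TSS was 3.46 kb long, from −1.28 to 2.17 kb.

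SNAI2 had the strongest H3K4me3 peak among the 6 factors in every library. Its −log10 q was 2.79 and 2.01 in the labelled All gRNA libraries and 2.61 and 5.85 in the labelled No gRNA libraries. Only 2.23%, 1.54%, 0.916% and 0.611% of all promoters had a stronger peak, in the order labelled All gRNA 1, All gRNA 2, No gRNA 1 and No gRNA 2. Widths were 10.9 and 7.03 kb against 13.5 and 8.64 kb, which overlapped, and 7.03 kb were covered in all 4 libraries. SLUG's gene thus had a strong H3K4me3 peak at its start and H3K9me3 peaks on both sides.

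TWIST1 was the factor whose H3K4me3 share rested most on 1 library. The TSS ± 1 kb was covered to 100% in both libraries labelled All gRNA, to 88.5% in the one labelled No gRNA 2 and to 16.1% in the one labelled No gRNA 1. The labelled groups did not overlap (difference 47.7 points, pooled SD 36.2, exact permutation test, two-sided, p = 0.33), but the nearest values were 11.5 points apart, below the 25 points that make a call. Without the library labelled No gRNA 1 the difference was 11.5 points, and without the one labelled No gRNA 2 it was 83.9 points and TWIST1 would be called. So would 2471 of the 19970 promoters in that setting, against 356 with all libraries. The labelled All gRNA 1 and No gRNA 2 libraries alone gave 100% and 88.5%, and exchanging the labels of the other two libraries would make the groups overlap. The difference was 5.75 points with peaks of q of 0.05 or less and −44.3 points, the other direction, with q of 0.01 or less. Among all promoters, 6.33% had non-overlapping labelled groups in this direction. The peak of the library labelled No gRNA 1 was 0.789 kb long and lay 0.679 to 1.47 kb into the gene, and the other peaks, 2.99, 6.12 and 5.43 kb long, all spanned both this stretch and the TSS.

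TWIST2 shares were 80.3% and 100% under the All gRNA label, against 72.5% and 100% under the No gRNA label, a difference of 3.92 points with a pooled SD of 16.9. The labels did not order them, since the 2 lower values came from the libraries labelled All gRNA 1 and No gRNA 1. The widest peaks were 6.67 and 11.5 kb against 11.1 and 27.0 kb, and the last, reaching 22.4 kb into the gene, was the widest at any of the 6 factors. The labelled All gRNA 1 and No gRNA 2 libraries alone gave shares of 80.3% and 100% and widths of 6.67 and 27.0 kb. In all 4 libraries 6.51 kb were covered, from −0.449 to 6.06 kb. The bases before the TWIST2 TSS hold 24 CG pairs, and 84.3% of promoters have fewer in the same length.
TWIST2, chr2:238847832-238848031 of hg38, plus strand, CG pairs in capitals: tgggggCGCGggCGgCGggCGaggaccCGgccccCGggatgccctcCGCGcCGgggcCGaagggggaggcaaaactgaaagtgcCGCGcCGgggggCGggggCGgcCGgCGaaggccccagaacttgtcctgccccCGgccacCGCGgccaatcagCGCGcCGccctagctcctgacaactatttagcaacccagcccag

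PRRX1 had the lowest mean −log10 q of H3K4me3 among the 6 factors. Its shares were 37.4% and 74.0% under the All gRNA label, against 100% and 97.0% under the No gRNA label. The labelled groups did not overlap (difference −42.8 points, pooled SD 18.3, exact permutation test, two-sided, p = 0.33), and the nearest values, 74.0% and 97.0%, were less than 25 points apart. Among all promoters, 7.60% had non-overlapping labelled groups in this direction. Leaving out the library labelled All gRNA 2 or the one labelled No gRNA 2 made PRRX1 a call. Of the 19970 promoters, 1372 and 1216 were called lower in these 2 settings, against 442 with all libraries. The labelled All gRNA 1 and No gRNA 2 libraries alone gave 37.4% and 97.0% at PRRX1. Exchanging the labels of the 2 doubtful libraries would make the groups overlap here too. The result also turned on where the start was set. The canonical PRRX1 transcript begins 1403 bases inside the annotated 5′ end, and around that start the difference was 4.87 points in the other direction. All 4 peaks covered 1.96 kb from 0.252 to 2.21 kb after the annotated end, and they differed in how far they reached before it, from 0.252 kb to −1.18 kb. The −log10 q was 0.832 and 0.731 against 0.503 and 1.93.
PRRX1, chr1:170662528-170662727 of hg38, plus strand, CG pairs in capitals: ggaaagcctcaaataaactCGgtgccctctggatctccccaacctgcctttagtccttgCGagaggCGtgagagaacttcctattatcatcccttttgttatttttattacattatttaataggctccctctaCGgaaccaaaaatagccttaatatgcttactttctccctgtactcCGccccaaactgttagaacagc

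This last stretch, the 200 bases before the annotated end, was covered by H3K4me3 peaks in the libraries labelled All gRNA 2, No gRNA 1 and No gRNA 2 and not in the one labelled All gRNA 1. Its 5 CG pairs compare with a median of 12 over all promoters. H3K9me3 peaks covered none of it in any library.

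**Figure D4:**
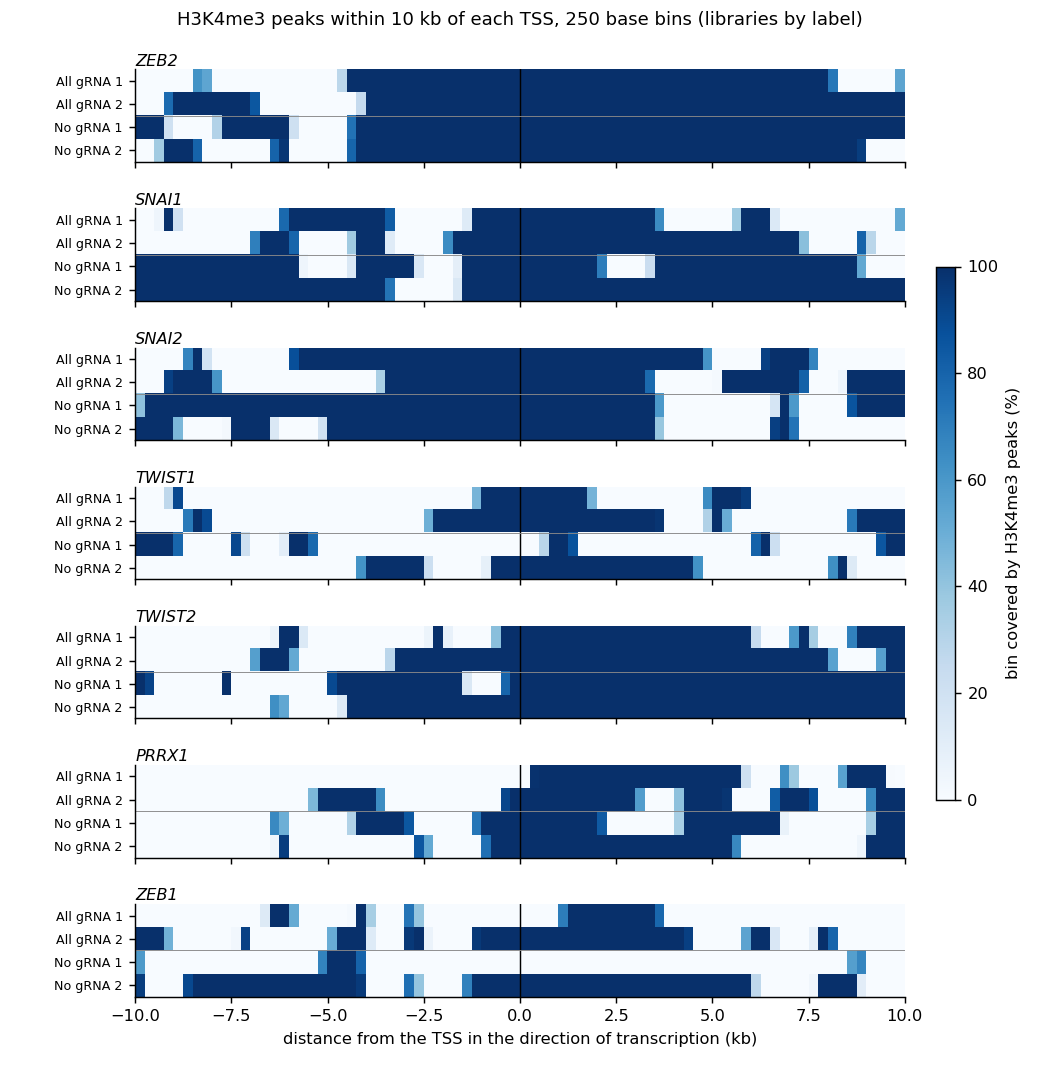
H3K4me3 peaks from 10 kb before to 10 kb after each TSS (horizontal axis, in the direction of transcription) in the 4 libraries by label (rows), with the colour giving the percent of each 250 base bin that peaks cover. ZEB2 shows a block of 12.2 kb common to all rows, TWIST1 a common block of 0.789 kb, and at PRRX1 the row labelled All gRNA 1 begins 0.252 kb after the TSS.

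**Figure D5:**
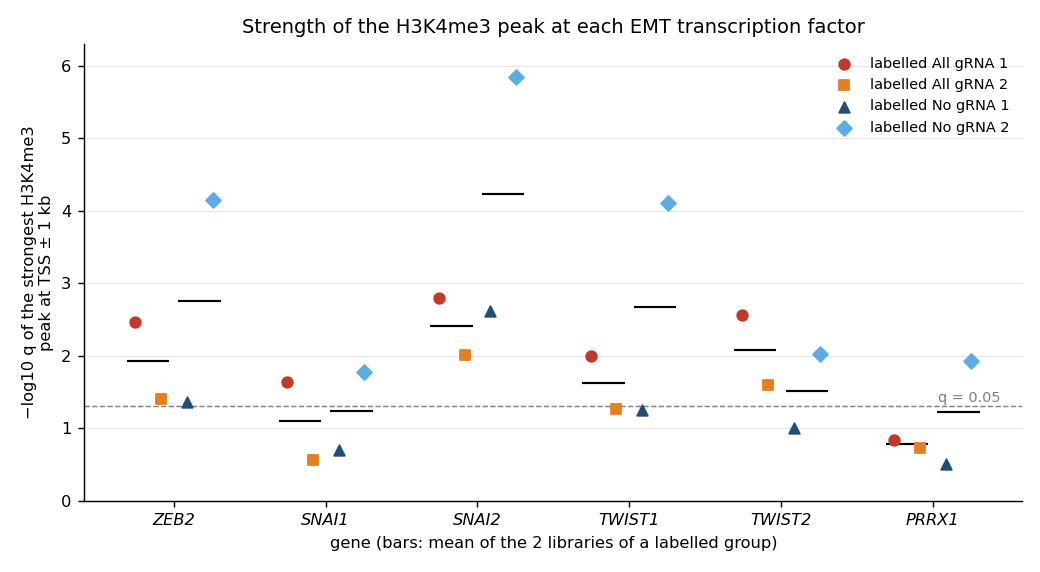
The −log10 q of the strongest H3K4me3 peak within 1 kb of each TSS (vertical axis), one point per library, a bar at the mean of each labelled group of 2 and a dashed line at q = 0.05. SNAI2 is highest in every library, from 2.01 to 5.85, and PRRX1 passes the line only in the library labelled No gRNA 2.

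The promoters differed in base composition, a property that the choice of genes did not use. Within 1 kb of the TSS the ratio of observed to expected CG pairs was 0.839 at TWIST2 and 0.813 at TWIST1, above 91.5% and 87.9% of all promoters. It was 0.717 at SNAI2 and 0.641 at SNAI1, above 70.0% and 54.7% of promoters (median 0.614), and 0.420 at ZEB2 and 0.408 at PRRX1, above 30.3% and 29.7% of promoters. These windows were centred on the annotated 5′ end. The canonical transcript begins 938 bases inside that end at ZEB2 and 1403 at PRRX1, but at most 311 (SNAI2) at the other members. Composition around the canonical starts was not computed, so the low ratios at ZEB2 and PRRX1 describe the annotated ends only. The E-box bound by SNAIL and ZEB proteins, CAGGTG or its reverse complement CACCTG, occurred 6 times at SNAI1, 3 times at SNAI2, 4 times at ZEB1 and not at the other members in this window of 2001 bases, where 83.0% of all promoters held at least one. A match describes the letters only. RefSeq promoter entries matched 3 of the 6 members, ZEB2, TWIST2 and PRRX1, and the sequences above are limited to these genes.

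Genes that work with the 6 factors were described by the same rule, as counts. Of 8 E proteins, ID proteins and HAND2, the partners and inhibitors of TWIST, 0 were called for either mark. HAND2, a bHLH factor of heart and limb, had the highest mean H3K9me3 share of these (65.1%) and the lowest H3K4me3 share (11.8%), and TCF3, an E protein, had the lowest H3K9me3 share (3.15%) with 100% H3K4me3. Of 13 corepressors that SNAIL or ZEB proteins recruit, 0 were called for H3K9me3 and 1 was called lower for H3K4me3, beside 2.21% of all promoters. This was HDAC2, a histone deacetylase, with 0% and 54.6% under the All gRNA label, against 100% and 87.1% under the No gRNA label. CTBP1, a corepressor of ZEB proteins, had the most H3K9me3 of this list (mean 42.5%), SIN3A and RCOR1 had none, and EED had the lowest H3K4me3 share (42.6%).

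Of 5 genes of SNAIL turnover, 0 were called. PRKD1, a kinase, had their highest H3K9me3 share (18.8%) and lowest H3K4me3 share (4.36%), while the ubiquitin ligase gene FBXL14 had the lowest H3K9me3 share (1.61%). Of 12 ligands, receptors and mediators upstream of the factors, 0 were called for H3K9me3 (0.18% higher and 0.0351% lower among all promoters) and 1 was called lower for H3K4me3 (2.21% of all promoters), SMAD4, the common mediator of TGF-beta signalling, with 53.5% and 50.8% against 88.7% and 100%. In the labelled All gRNA 1 and No gRNA 2 libraries alone, HDAC2 stood at 0% and 87.1% and SMAD4 at 53.5% and 100%. Both calls rest on labels in doubt, since exchanging the labels of the libraries labelled All gRNA 2 and No gRNA 1 would make the groups overlap. TGFBR1, a TGF-beta receptor, had the highest H3K9me3 share of the upstream genes (17.5%), and CTNNB1, which encodes beta-catenin, the lowest (1.61%) and also the lowest H3K4me3 share (41.8%).

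Of 11 further transcription factors linked to EMT, 0 were called. TBXT, the Brachyury gene, had their most H3K9me3 (mean 52.3%), SNAI3 had none like SNAI1, and GSC, a homeobox gene, had the lowest H3K4me3 share (18.4%). Among these, 6 of 11 had no H3K4me3 peak at q of 0.05 or less in any library, as did 45.2% of all promoters. This count was 0 of 6 for the factors above, 2 of 13 for the corepressors, 1 of 12 for the upstream genes and 1 of 6 for the mesenchymal markers. Of 6 mesenchymal markers 0 were called, with mean H3K9me3 shares from 3.91% at CDH2, N-cadherin, to 28.7% at MMP2, a matrix metalloproteinase that also had their lowest H3K4me3 share (30.1%). Of 8 epithelial and luminal markers 0 were called. Their H3K9me3 ran from 1.22% at OVOL1 to 34.3% at ESR1, the oestrogen receptor gene, which had 0% H3K4me3 in all 4 libraries, and ESRP1, a splicing regulator of epithelial cells, had the highest H3K4me3 share (80.0%).

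Genes most like each factor were taken by distance over the 8 shares, 4 for each mark, in percentage points. SNAI1 had 0% for H3K9me3 and 100% for H3K4me3 throughout, and 676 genes shared this profile exactly. The first by symbol were AASDH and ABCB9, and 6118 genes were within 20 points of SNAI1. ZEB2 lay within 1.06 points of LIN7C and 1.13 points of CLCN7, and 6535 genes were within 20 points of it. SNAI2 was closest to MAML2 (4.71 points) and ELFN2 (4.79), with 479 genes within 20 points, and TWIST2 to C17orf58 (4.48) and PCCB (7.88), with 130. TWIST1 had 12 genes within 20 points, led by CREG2 (17.4) and GPLD1 (17.5). PRRX1 had 0 genes within 20 points, and its closest were RLIM at 26.3 and a gene without a symbol at 31.6.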

How the data were processed

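Native ChIP-seq of SUM159 cells was analysed from 8 deposited broad peak lists, one per library, with groups from the sample labels. Per the study's methods, fastp trimming and bowtie2 alignment to hg38 came before MACS2, which gave broad peaks. The submitters' processing notes name bcl2fastq 2.17, Trimmomatic 0.33, Bowtie 1.1.2 and MACS2 2.1.0. Which control MACS2 used is not given in the sources used here. Each deposited peak has a score, a fold enrichment ratio, a −log10 p-value and a −log10 q-value from the authors' caller. The score was not used. The lists reach down to a −log10 p-value of 1.00, so weak regions are included, and hold no counts, so depth and counting error are unknown.

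All deposited peaks on the autosomes and X were merged per library. A share is the percent of bases within 10 kb (H3K9me3) or 1 kb (H3K4me3) of the TSS covered by peaks, and a width is the length of the longest peak there. The TSS is the 5′ end of the gene in GENCODE 44 (19970 protein-coding genes, hg38). None of the 3126959 peaks on these chromosomes ran past a chromosome end of that build. Groups were compared by an exact permutation test over 6 labellings and by the 25 point rule. Shares, calls and p were tested on simulated data. Named were the 6 factors, ZEB1, listed genes that were called or were highest or lowest in mean share, and the 2 genes closest to each factor. The factors and gene lists were chosen with earlier results of these data known. Alternatives covered q of 0.05 and 0.01, equal covered length, other windows, the canonical transcript start, a gap of 50 points, peaks joined over 1 kb, each library left out, a replicate block and the doubtful H3K4me3 libraries. No 2 libraries of a mark shared more than 32 identical peaks. Python 3.11.15, numpy 2.4.6 and pandas 2.3.3 were used.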

Additional observations from a re-analysis of the deposited data

How the results depend on the processing

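For H3K9me3, 0 of the 6 factors were called in either direction under every alternative run. For H3K4me3 the count of factors called lower was 0 with all libraries and between 0 and 1 when 1 library was left out, being 1, PRRX1, without the library labelled All gRNA 2 or the one labelled No gRNA 2. In these 2 settings 1372 and 1216 of all promoters were called lower. The count called higher was also between 0 and 1, being 1, TWIST1, without the library labelled No gRNA 2, where 2471 of all promoters were called higher. With only the 2 libraries whose file names match their labels, 1 against 1, the count called lower was 1, again PRRX1, beside 3216 of all promoters. The median difference of the 6 factors moved by less than the replicate spread under 23 of 23 alternatives. Of the H3K9me3 differences at single factors 58 of 66 did so, of the H3K4me3 share differences 61 of 72 and of the widths 54 of 60. Part of this was fixed by floor and ceiling. With all peaks SNAI1 had an H3K9me3 share of 0% in every library, and ZEB2, SNAI1 and SNAI2 had an H3K4me3 share of 100%. The H3K4me3 median rests in part on the same factors. Of the differences that moved further, some also changed sign. These were H3K9me3 at TWIST1 (9.32 points within 5 kb), ZEB2 (1.88 points within 5 kb) and SNAI2 (−3.67 points at equal covered length), and H3K4me3 at TWIST1 (−44.3 points at q of 0.01 or less), PRRX1 (4.87 points at the canonical start) and TWIST2 (−19.7 points in the 2 libraries with matching names). Widths changed sign at TWIST1 (−2.71 kb at q of 0.01 or less and −2.44 kb in the 2 libraries with matching names) and at SNAI2 (2.23 kb in those 2). Signs also changed among differences that moved by less than the spread. For H3K9me3 without No gRNA 2, examples were PRRX1 (−6.14 points), SNAI2 (−2.43 points) and ZEB2 (1.56 points). For H3K4me3, TWIST2 went to −9.85 points without the library labelled No gRNA 1. The cause was not tested. With the replicate block the median differences were −0.194 points (H3K9me3) and 0 (H3K4me3), and 0 factors were called. Over all promoters, libraries with the same number did not deviate together (correlations of 0.0266 and 0.0148). Whether they shared a batch cannot be told from 2 pairs, and for H3K4me3 some file names give other numbers than the labels. At ZEB1 the H3K4me3 shares did go by labelled number, with 0% in both libraries numbered 1 and 100% in both numbered 2. They would go by group instead if the labels of the 2 doubtful libraries were exchanged. The counts over all promoters depended on the setting. H3K9me3 calls were 36 higher and 7 lower, and ran from 75 to 148 and from 28 to 93 when 1 library was left out. H3K4me3 calls were 356 and 442, fell to 27 and 3 higher at q of 0.05 and 0.01 and to 201 lower at 0.01, were 1504 and 3216 in the 2 libraries with matching names, and ran from 707 to 2471 and from 1020 to 1444 with 1 library left out. With 2 libraries per group and no read counts, small differences in either mark could not be detected.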
